A study of Mus musculus with 12 samples.

Results

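The 9 genes described here encode the enzymes that write, copy and erase DNA methylation (Dnmt1, Dnmt3a, Dnmt3b, Uhrf1, Tet2 and Tet3) and the catalytic core of Polycomb repressive complex 2, PRC2 (Ezh2, Suz12 and Eed). They were chosen by name and function, with earlier results of these data known. All 9 are among the 13780 genes listed in the count table and the 13767 that were tested. CD8+ T cells were isolated by positive magnetic bead selection from the spleens of young adult wild-type C57BL/6J mice. The naïve group (4 libraries, 4 donors) was frozen at once without treatment. The media group (4 libraries) was cultured for 72 h in plain media with recombinant human IL-2 (10 U/ml) and beads carrying anti-CD3 and anti-CD28, which activate the T cells. The lactate group (4 libraries) had the same beads, IL-2 and time, with 40 mM sodium lactate added to the media. The control for lactate was plain media and not an equal amount of sodium chloride, so lactate, sodium and osmolality cannot be told apart in these libraries. The activated libraries came from 5 donors, and 3 of these donors are in both activated groups.

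DNA methylation at CpG sites is set down by the de novo enzymes DNMT3A and DNMT3B, copied to the new strand after replication by DNMT1, which UHRF1 brings to hemimethylated DNA, and oxidised towards removal by the TET enzymes. PRC2 places methyl groups on lysine 27 of histone H3 through EZH2 or its paralogue EZH1, and needs SUZ12 and EED for its stability and activity. In CD8+ T cells both systems are known for silencing genes of the naïve and memory states as effector cells form, and several of their genes are transcribed most in dividing cells. The measurements here are of messenger RNA, and neither DNA methylation nor histone methylation was measured.

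Total counts per library ran from 14726904 to 21478137, and the values below are read counts scaled for library size by TMM and given as CPM. Each is a share of the RNA in a bulk library, so that fewer cells of a type and less RNA per cell cannot be told apart. Naïve library 4 stood apart from the other naïve libraries, with a chi-square per gene of 136 to 151 against them, where the other naïve pairs had 26.7 to 48.8. CD8+ T cell markers were present in every library (summed CPM over 7 genes 2170 to 4340 in naïve, 3330 to 4100 in media and 2610 to 3230 in lactate). The naïve libraries also held markers of other spleen cells. All 6 B cell markers, all 7 myeloid markers and all 4 listed red cell markers were lower in media than in naïve at the threshold used throughout (edgeR adjusted p of at most 0.01). Their summed CPM ran from 2140 to 4910, 519 to 1680 and 84.1 to 3370 in naïve, and from 428 to 695, 12.2 to 19.1 and 0 to 0.231 in media. In lactate the B cell sum was 248 to 330, with Ighm making up most of it. Of the 4 NK cell markers 3 were lower in media than in naïve and Klrk1, which activated CD8+ T cells also express, was higher (log2 3.80), with Ncr1 at 0 in all media libraries. Of the 3 CD4 T cell markers 2 were lower and Zbtb7b was higher (1.11), with Cd4 itself averaging 22.1 CPM in naïve and 0.348 in media. The NK sum was 205 to 293 CPM in media and 133 to 197 in lactate, mostly Klrk1, and the CD4 sum 44.6 to 55.8 and 76 to 89.4, mostly Zbtb7b. Of the CD8+ T cell markers Cd3d, Cd3e and Cd3g were lower in lactate than in media (log2 -0.74, -0.91 and -0.80) and Cd2 was higher (0.51). The defining myeloid marker Lyz2 averaged 155 CPM in naïve and 0.0273 in media. The part of other cells in the differences from naïve, and of these marker differences in those between lactate and media, was not tested.

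Promoter sequences are shown first because the genes with the steepest rises on activation, Uhrf1, Ezh2 and Dnmt1, each hold 1 or both of a pair of related short words. RefSeq windows of 300 bases (250 before to 50 after a start site, GRCm38.p6) were found for all 9 genes, and were searched on both strands for the E2F words TTTCGCGC and TTTGGCGC, which do not overlap each other in these windows. One of the words was present in 0.813% of the 32851 windows of all genes. Among the 9 genes it was present in 1 of the 3 windows of Dnmt1, 1 of the 2 of Uhrf1 and the only window of Ezh2. It was in none of the windows of the other members. The percentage counts windows, and some genes have several, so it is not a share of genes. Both words contain CpG. The windows with a match had ratios of observed to expected CpG of 0.91 (Dnmt1), 0.959 (Uhrf1) and 0.999 (Ezh2), above the upper quartile of 0.75 over all windows. The share with a word among windows equally dense in CpG was not computed. The stretches around the matches are printed 5′ to 3′ on the strand of the gene, with the E2F word or its reverse complement in capitals.
Dnmt1, start inside the gene, chr9:20952824-20952853, minus strand: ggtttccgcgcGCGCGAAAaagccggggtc
Dnmt1, start inside the gene, chr9:20952574-20952601, minus strand: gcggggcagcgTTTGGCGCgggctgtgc
Uhrf1, start inside the gene, chr17:56304117-56304146, plus strand: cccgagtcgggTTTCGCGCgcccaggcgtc
Ezh2, chr6:47595009-47595038, minus strand: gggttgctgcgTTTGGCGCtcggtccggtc
The Ezh2 word begins 3 bases after the start site, that of Uhrf1 185 bases before it, and those of Dnmt1 219 bases before and 33 bases after it. The starts of Ezh2 and of Tet2 (printed below) also lie inside the annotated genes, which reach to 47595341 and 133545139. The words and the genes were both chosen with the expression values known, so the match is a description of these windows and shows no binding.

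The 250 bases before the start sites of Ezh2 and Tet2 are printed whole, because these are the members that differed between lactate and media. Capitals mark CCAAT, or ATTGG on the other strand, a word that 37.4% of all windows hold.
Ezh2, chr6:47595031-47595280, minus strand: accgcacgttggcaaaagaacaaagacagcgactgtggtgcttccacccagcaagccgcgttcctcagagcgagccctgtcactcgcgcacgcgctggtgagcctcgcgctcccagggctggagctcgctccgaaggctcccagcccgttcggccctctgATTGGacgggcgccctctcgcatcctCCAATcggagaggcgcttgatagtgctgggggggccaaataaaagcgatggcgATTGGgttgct
Tet2, chr3:133544391-133544640, minus strand: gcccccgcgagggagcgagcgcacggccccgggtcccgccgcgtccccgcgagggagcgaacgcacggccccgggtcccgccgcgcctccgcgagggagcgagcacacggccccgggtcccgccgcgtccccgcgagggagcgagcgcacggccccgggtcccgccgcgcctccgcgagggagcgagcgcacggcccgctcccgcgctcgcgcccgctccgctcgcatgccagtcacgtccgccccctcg
Ezh2 had 3 such words in this stretch, and Tet2 had neither these nor the E2F words. Both windows are dense in CpG: the ratio of observed to expected CpG over 300 bases was 0.999 for Ezh2 and 1.17 for Tet2, against quartiles of 0.176, 0.384 and 0.75 over all windows.

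Activation in plain media moved most of the 9 genes. In media against naïve 6 were higher and 1, Tet3, was lower, while 57.5% of all tested genes were called in either direction (28.5% higher). The median log2 fold change of the 9 was 0.94, against -0.0288 for all genes. The groups did not overlap for 7 of the 9, and for 61.2% of all genes. Lactate against media moved fewer: Ezh2 was higher and Tet2 was lower, which makes 2 of 9 where 25.1% of all genes were called (13.9% higher, 11.1% lower), and the medians were 0.11 and -0.00158. The groups did not overlap for 3 of the 9 and for 44.7% of all genes. The share of the 9 that lactate moved was thus close to that of all genes. Lactate against naïve gave 6 higher and 1 lower, with 65% of all genes called (33% higher, 32% lower), and a median of 1.06 against 0.012. The groups did not overlap for 8 of the 9, with 6 higher, and for 67.8% of all genes, with 35% higher. The 3 comparisons share their groups and are not independent of each other.

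**Figure D1:**
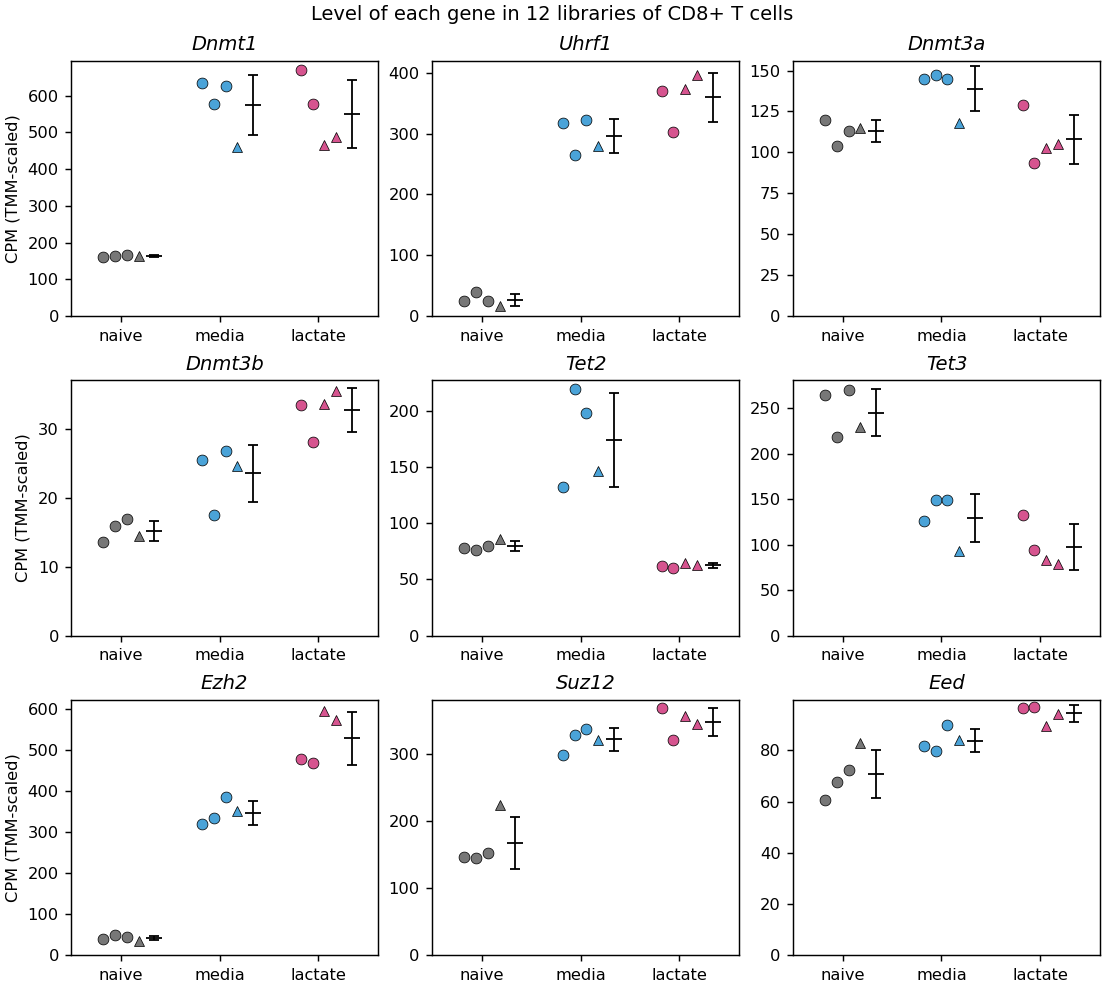
Level of each of the 9 genes in CPM (vertical axis, linear from 0) in the 4 naïve, 4 media and 4 lactate libraries, with the mean and SD of each group beside the points. Circles are libraries numbered 1 to 9 in the labels and triangles those numbered 16 to 26. Tet2 peaks in media (132 to 219 CPM) and Ezh2 rises at each step, to 470 to 595 CPM in lactate.

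The pair that copies methylation at replication rose with activation. Dnmt1 (ENSMUSG00000004099, GRCm38 chr9:20907209-20959888, minus strand) encodes the maintenance methyltransferase. Its level was 161, 164, 166 and 164 CPM in the naïve libraries, 636, 578, 626 and 460 in media and 669, 578, 467 and 489 in lactate. All activated libraries lay above all naïve ones, and the media and lactate libraries overlapped over nearly their whole range. Dnmt1 rose 3.51-fold in media (log2 1.81, SE 0.13, edgeR adjusted p = 1.56e-07) and stood 3.36-fold above naïve in lactate (edgeR adjusted p = 1.47e-07). Lactate against media gave a log2 fold change of -0.06 (SE 0.13, edgeR adjusted p = 0.737). The naïve libraries agreed closely, with an SD of 1.89 around 164 CPM (n = 4), while the lactate SD was 92.4 around 551 CPM (n = 4).

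Uhrf1 (ENSMUSG00000001228, chr17:56303321-56323486, plus strand), whose protein recognises hemimethylated CpG and recruits DNMT1, had the steepest rise of the 9. It was at 24.3, 40.4, 24.6 and 17.4 CPM in naïve, 317, 265, 323 and 280 in media and 370, 303, 373 and 396 in lactate. Every activated library was far above every naïve one. The rise in media was 11.1-fold (log2 3.47, SE 0.22, edgeR adjusted p = 4.7e-08) and the level in lactate was 13.5-fold that of naïve (edgeR adjusted p = 2.19e-08). The lactate libraries overlapped those of media (log2 0.28, SE 0.20, edgeR adjusted p = 0.28). Among naïve libraries the highest Uhrf1 level, 40.4 CPM, was in library 2, which also had the highest B cell marker sum (4910 CPM), red cell marker sum (3370 CPM) and mean log2 CPM of S phase genes (5.17, against 4.64 to 4.65 in the other naïve libraries) and mitosis genes (4.67, against 2.85 to 3.47). The part of these in that level was not tested.

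The de novo methyltransferase genes moved less, and in lactate their values lay on opposite sides of media. Dnmt3a (ENSMUSG00000020661, chr12:3806007-3914443, plus strand) was at 120, 104, 113 and 115 CPM in naïve, 145, 147, 145 and 118 in media and 129, 93.5, 103 and 105 in lactate. Media libraries 1 to 3 were above all others, and media library 4 lay among the lactate libraries. Neither activation (log2 0.30, SE 0.11, edgeR adjusted p = 0.0283) nor lactate against media (log2 -0.37, SE 0.11, edgeR adjusted p = 0.0181) passed the threshold. The lactate difference passed it without media library 4 (-0.44, edgeR adjusted p = 0.00815) and without lactate library 1 (-0.46, edgeR adjusted p = 0.00544). It also passed in DESeq2 (adjusted p = 0.00287). With donor as a block on the media and lactate libraries it was smaller (-0.31, edgeR adjusted p = 0.059). Without media library 2 it was -0.34 (edgeR adjusted p = 0.0508). The 3 donors with both libraries gave -0.17, -0.17 and -0.63.

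Dnmt3b (ENSMUSG00000027478, chr2:153649450-153687730, plus strand) was at 13.6, 16, 16.9 and 14.5 CPM in naïve, 25.5, 17.6, 26.8 and 24.6 in media and 33.6, 28.2, 33.7 and 35.6 in lactate. The groups were ordered without overlap, though media library 2 lay close to naïve. Activation raised it 1.55-fold (log2 0.63, SE 0.14, edgeR adjusted p = 0.00162), a call that was lost without media library 4 (0.55, edgeR adjusted p = 0.0103). In lactate it stood 2.15-fold above naïve (edgeR adjusted p = 1.58e-05). Lactate against media gave 0.47 (SE 0.14) and did not pass (edgeR adjusted p = 0.018), with all 4 lactate libraries above all 4 media libraries.

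A TET gene, Tet2, had the largest difference of the 9 between lactate and media. TET2 and TET3 oxidise 5-methylcytosine, and Tet2 loss is known to alter the fate of CD8+ T cells. Tet2 (ENSMUSG00000040943, chr3:133463679-133545139, minus strand) was at 77.8, 75.8, 80 and 85.5 CPM in naïve, 132, 219, 198 and 146 in media and 62.2, 60, 64.4 and 63 in lactate. It rose with activation in plain media in every library, and in lactate it lay below every media and every naïve library. Activation raised it 2.18-fold (log2 1.12, SE 0.14, edgeR adjusted p = 1.51e-05), and with lactate it was 2.79-fold lower than in media (log2 -1.48, SE 0.14, edgeR adjusted p = 5.56e-05). The difference between lactate and naïve did not pass (log2 -0.35, SE 0.14, edgeR adjusted p = 0.0351). The spread also differed, with an SD of 41.4 CPM in media and 1.88 CPM in lactate (n = 4 each). Within the 3 donors with both libraries, log2 lactate minus media for Tet2 was -1.21, -1.09 and -1.72.

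Tet3 (ENSMUSG00000034832, chr6:83362373-83459084, minus strand) was the only member that activation lowered. Its level was 264, 218, 270 and 229 CPM in naïve, 126, 149, 149 and 93.3 in media and 133, 94.5, 83.2 and 78.1 in lactate. All naïve libraries were above all activated ones, and media and lactate overlapped. Tet3 fell in media (log2 -0.92, SE 0.18, edgeR adjusted p = 0.000644) and stood 2.52-fold below naïve in lactate (edgeR adjusted p = 2.84e-05). Lactate against media gave -0.41 (SE 0.18, edgeR adjusted p = 0.0914), and the 3 donors gave -0.26, 0.08 and -0.65.

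Tet2, Tet3 and Dnmt3a have long exon unions in the count table (16870, 16695 and 16642 bases), which places them in the top length decile of the tested genes. In that decile the median log2 fold change of lactate against media was -0.27, with 7.26% of genes called higher and 21.8% lower, where the decile with the highest median, of genes between 1228 and 2027 bases, had 0.14. The part of gene length in the lower values of these members was not tested.

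**Figure D2:**
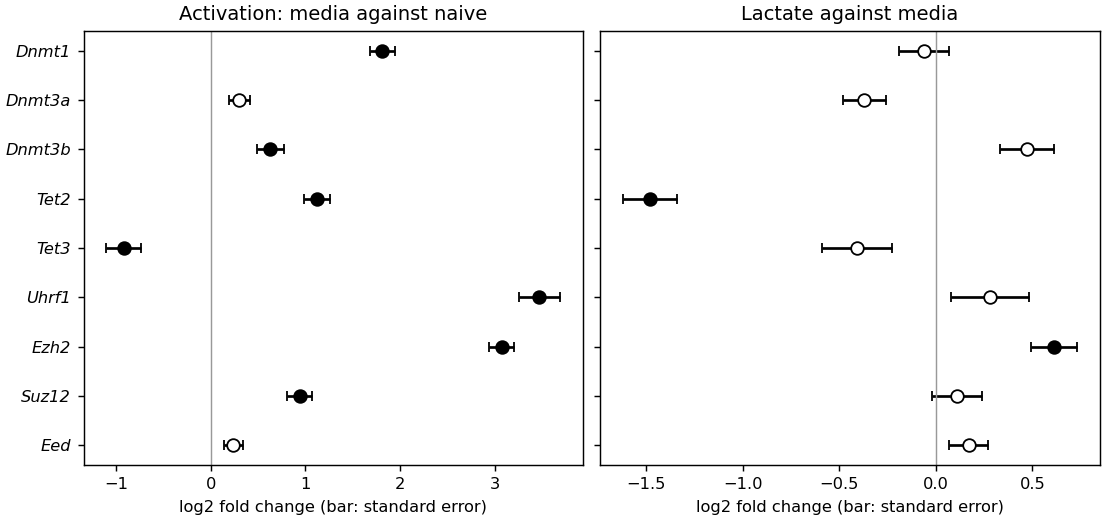
Log2 fold change of each gene (horizontal axis, with its standard error) in media against naïve (left) and lactate against media (right), on different scales. Filled points passed an adjusted p of 0.01: 7 of the 9 genes on the left, and Tet2 (-1.48) and Ezh2 (0.61) on the right.

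The 3 core PRC2 genes rose by very different amounts. Ezh2 (ENSMUSG00000029687, chr6:47530139-47595341, minus strand), the catalytic subunit, was at 39.1, 48.8, 42.8 and 34.9 CPM in naïve, 319, 334, 386 and 351 in media and 479, 470, 595 and 574 in lactate. The groups formed 3 steps with no overlap. Activation raised Ezh2 8.39-fold (log2 3.07, SE 0.13, edgeR adjusted p = 3.13e-09). In lactate it was a further 1.52-fold higher than in media (log2 0.61, SE 0.12, edgeR adjusted p = 0.00182), to 12.8-fold the naïve level. The 3 donors with both libraries gave 0.71, 0.59 and 0.28. With donor as a block the media and lactate libraries gave 0.54 (edgeR adjusted p = 0.00412). A block over all 12 libraries, in which the naïve libraries shared the same level, gave 0.53 and lost the call (edgeR adjusted p = 0.0377). Of the exon bases of Ezh2, 2.61% overlap a gene on the other strand, Gm26625.

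Suz12 (ENSMUSG00000017548, chr11:79993106-80034123, plus strand), the scaffold of the complex, was at 146, 145, 152 and 224 CPM in naïve, 298, 328, 337 and 320 in media and 368, 320, 356 and 344 in lactate. Naïve library 4 was well above the other naïve libraries, yet below all activated ones. Suz12 rose 1.92-fold with activation (log2 0.94, SE 0.13, edgeR adjusted p = 4.22e-05), or by 1.11 on the log2 scale without naïve library 4. Lactate against media gave 0.11 (SE 0.13, edgeR adjusted p = 0.529).

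Eed (ENSMUSG00000030619, chr7:89954654-89980983, minus strand), which reads the H3K27 mark and stimulates the enzyme, changed little. It was at 60.5, 67.5, 72.2 and 83.1 CPM in naïve, 81.8, 79.8, 89.8 and 84.3 in media and 96.7, 97.2, 89.7 and 94.4 in lactate. Naïve library 4 fell among the media libraries, and only the lactate libraries cleared the naïve group. Lactate against naïve passed (log2 0.42, SE 0.10, edgeR adjusted p = 0.00169), while media against naïve (0.24, edgeR adjusted p = 0.0382) and lactate against media (0.17, edgeR adjusted p = 0.177) did not. The first call was lost without naïve library 2 (edgeR adjusted p = 0.0274), naïve library 3 (0.0171) or lactate library 4 (0.0152), and also with DESeq2 size factors (0.0108) and with only the groups compared in the fit (0.0135). Conversely, media against naïve passed for Eed without naïve library 4 (0.32, edgeR adjusted p = 0.00294). Opposite-strand genes overlap 3.6% of the exon bases of Suz12 and 6.82% of those of Eed, and whether the counting used the strand is not given in the sources used here.

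Levels per length, in TPM (reads per base as a share of all listed genes in the library), put the members in a different order in each group. In naïve cells Suz12 was highest (mean 116 TPM, SD 31) and clear of Dnmt1 (75.9), Eed (63.3) and Tet3 (50.2), where neighbours overlapped. Dnmt3a (23.2), Uhrf1 (21.2) and Ezh2 (21.1) followed as an overlapping set, and Tet2 (16.2) and Dnmt3b (10.2) were lowest. In media Dnmt1 (271), Uhrf1 (241) and Suz12 (225) led, each overlapping the next, and Ezh2 (180) was clear of them. Eed (76) stood alone, and Tet2 (35.8), Dnmt3a (29), Tet3 (27) and Dnmt3b (16) overlapped in turn. In lactate the leading set was Uhrf1 (267), Ezh2 (249), Dnmt1 (237) and Suz12 (221), and Tet2 (11.7) was last, clear of Tet3 (18.5). Thus Tet2 moved from the head of the overlapping lower set in media to last in lactate, and Ezh2 from the lower part in naïve to the leading set.

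Ratios between related genes within a library do not depend on how libraries are scaled. Of the 12 ratio comparisons, those whose groups did not overlap reached the smallest exact two-sided permutation p that 4 against 4 libraries allow, 0.0286, which is 0.0343 after Benjamini-Hochberg adjustment over the 12. Ezh2 reads per base were 0.261 to 0.506 of those of its paralogue Ezh1 in naïve, 2.54 to 3.9 times in media and 11.5 to 17.9 times in lactate. The log2 ratio rose by 3.15 from naïve to media and by a further 2.19 from media to lactate (exact permutation p = 0.0286 for each). Ezh1 itself averaged 124 CPM (SD 17.8) in naïve, 117 (SD 19.9) in media and 38.9 (SD 4.47) in lactate, so that the first step came mainly from Ezh2 and most of the second from Ezh1. Against media Ezh1 was lower in lactate by a log2 fold change of -1.60 (SE 0.14, edgeR adjusted p = 4.9e-05).

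The Tet3 to Tet2 ratio was 2.71 to 3.43 in naïve, 0.646 to 0.964 in media and 1.25 to 2.17 in lactate. Tet3 thus led in naïve and lactate and Tet2 in media, and the lactate minus media log2 difference was 1.03 (exact permutation p = 0.0286). The Dnmt3b to Dnmt3a ratio was 0.37 to 0.504 in naïve, 0.389 to 0.678 in media and 0.853 to 1.1 in lactate. It differed between lactate and media by 0.86 on the log2 scale (exact permutation p = 0.0286), and not detectably between media and naïve (0.32, exact permutation p = 0.171). The Uhrf1 to Dnmt1 ratio rose by 1.74 with activation (exact permutation p = 0.0286), and its media and lactate values overlapped (0.35, exact permutation p = 0.143).

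**Figure D3:**
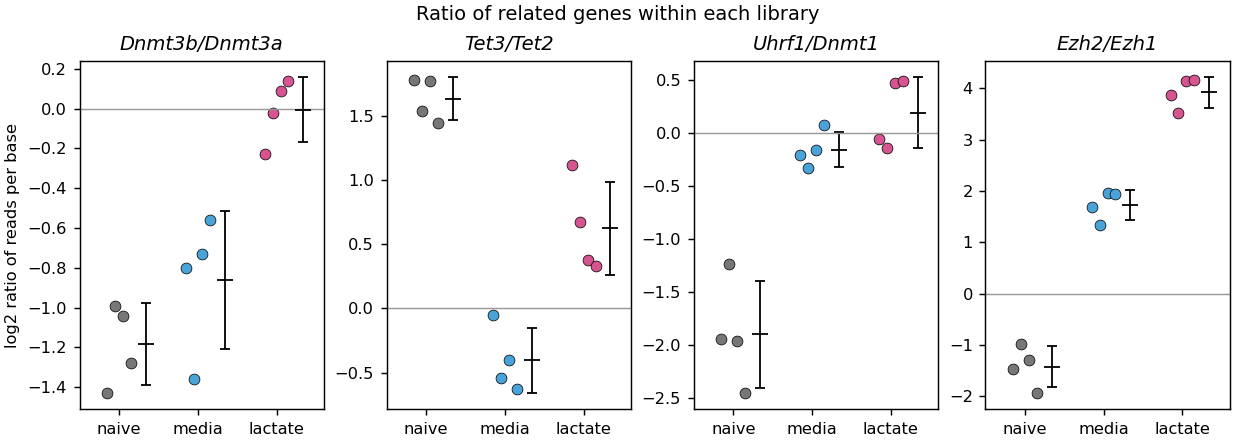
Log2 ratio of reads per base (vertical axis) for 4 pairs of related genes in each naïve, media and lactate library, with the mean and SD of each group. For Ezh2/Ezh1 the groups form separate steps with means -1.42, 1.73 and 3.92, and for Tet3/Tet2 media lies below both other groups.

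Because Uhrf1, Dnmt1 and Ezh2 are transcribed most around DNA replication, their levels were set against genes of that phase. All 20 S phase genes and all 12 mitosis genes listed rose with activation, with median log2 fold changes of 2.19 and 4.04. In lactate against media 5 of the S phase genes were higher and none lower (median 0.36), among them Ccne1 (cyclin E, 1.14), Fen1 (the flap endonuclease, 0.83) and Rfc4 (a clamp loader subunit, 0.57). None of the mitosis genes was called (median -0.05), in a fit whose estimate of the spread includes the naïve libraries. Mki67, Ccna2, Ccnb2 and Bub1 were lower in lactate than in media without overlap, Ccnb1 was higher without overlap, and the others overlapped. Bub1 ran from 178 to 198 CPM in media and from 129 to 135 in lactate. Most of the S phase genes were higher in lactate without overlap. Of all tested genes 44.7% did not overlap. Relative to the mean of the S phase list in the same library, lactate minus media was -1.81 for Tet2 and -0.74 for Dnmt3a on the log2 scale, with no overlap (exact permutation p = 0.0286 for each, unadjusted, 9 tests). Relative to the mitosis list Dnmt3a was at -0.25 and its groups no longer reached that p (exact permutation p = 0.0571), while Tet2 was at -1.33. For Suz12 it was -0.25 (exact permutation p = 0.0286), a sign that turned to 0.23 relative to the mitosis list. Ezh2 was higher by 0.24, with groups that overlapped (exact permutation p = 0.0857), and by 0.72 relative to the mitosis list. Tet3 was at -0.79 (exact permutation p = 0.0571), Dnmt1 at -0.43 (exact permutation p = 0.0857) and Eed at -0.19 (exact permutation p = 0.0571), all with groups that overlapped. Relative to the mitosis list Eed turned to 0.29. Dnmt3b was at 0.12 (exact permutation p = 0.343), and at 0.60 relative to the mitosis list (exact permutation p = 0.0286). Uhrf1 was at -0.09 (exact permutation p = 0.286).

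Of 18 partners, readers and other enzymes of DNA methylation, 17 were tested. The counts for this list and those that follow stand beside all tested genes, of which lactate against media called 13.9% higher and 11.1% lower. For media against naïve these shares were 28.5% and 29%. In lactate 3 were higher and 3 lower than in media (median -0.03). The higher ones were Gadd45g (2.03, SE 0.45), a stress-induced gene linked to demethylation, Mbd3 (0.72, SE 0.09), a subunit of the NuRD repressor complex, and Mbd2 (0.35, SE 0.08), a reader of methylated CpG. The lower ones included Mbd4 (-0.67, SE 0.13), a glycosylase for mismatches at CpG sites, and Uhrf2 (-0.39, SE 0.10), the paralogue of Uhrf1. Tet1, the remaining TET gene, was named after its values were seen: it averaged 26.1 CPM (SD 4.59) in media and 6.15 (SD 1.14) in lactate, with no overlap, and did not pass (log2 -2.08, SE 0.59, edgeR adjusted p = 0.0139). Naïve levels of Tet1 ran from 1.79 to 37.9 CPM. With activation 6 of the 17 were higher and 5 lower.

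Of 11 other PRC2 subunits 10 were tested, and in lactate 3 were higher and 3 lower than in media (median -0.03). Apart from Ezh1, the largest differences were in accessory subunits that direct the complex. Epop, an elongin-binding subunit of the PRC2.1 form, went from 17.9 to 26.7 CPM in media to 61.1 to 64.3 in lactate (log2 1.43, SE 0.15, edgeR adjusted p = 6.36e-05). Jarid2, which marks the PRC2.2 form, went from 83.1 to 110 CPM in media to 35.8 to 48.1 in lactate (log2 -1.11, SE 0.12, edgeR adjusted p = 6.36e-05), and Phf1, a Polycomb-like subunit, was also lower (-0.66). The histone-binding subunits Rbbp7 (0.56, SE 0.08) and Rbbp4 (0.40, SE 0.08) were higher in lactate, and both belong to other chromatin complexes as well. With activation 6 of the 10 rose and 2 fell.

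Genes acting beside PRC2 were taken from 3 further lists. Of all tested genes, 25.1% were called in lactate against media (13.9% higher and 11.1% lower). Of 22 PRC1 genes, which write or bind the marks of the sister complex, 2 were higher in lactate (L3mbtl2 0.76 and Yaf2 0.49) and 2 lower (Scmh1 -0.42 and Bcor -0.41), with a median of -0.13. Of 9 genes of H3K27 demethylases and the H2A deubiquitinase complex none was higher and 2 were lower, Kdm6a (-0.78, SE 0.16), a demethylase of H3K27, and Mbd6 (-0.36, SE 0.09), with a median of -0.39. The methyl donor cycle supplies S-adenosylmethionine to both systems, and 4 of its 10 genes were higher in lactate and none lower (median 0.46). Mat2a, which makes S-adenosylmethionine, averaged 247 CPM in naïve, 101 in media and 243 in lactate (lactate against media 1.26, SE 0.19, edgeR adjusted p = 0.000298). Amd1 (1.32, SE 0.14) and Mtap (1.08, SE 0.16), of the polyamine branch and its salvage, and Ahcy (0.62, SE 0.15), which clears the product inhibitor of methyltransferases, were the others.

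Of 13 genes of the E2F factors, which bind words of the kind printed above, and of their partners and the RB proteins that restrain them, 10 were higher with activation and 1 lower. In lactate against media 1 was higher, the E2F partner Tfdp1 (1.13, SE 0.14, edgeR adjusted p = 0.000144), and 3 were lower, the pocket protein genes Rb1 (-0.69, SE 0.13), Rbl1 (-0.59, SE 0.13) and Rbl2 (-0.57, SE 0.08). The median was -0.31. Of all tested genes, 28.5% were higher and 29% lower with activation, and 13.9% and 11.1% in lactate against media.

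**Figure D4:**
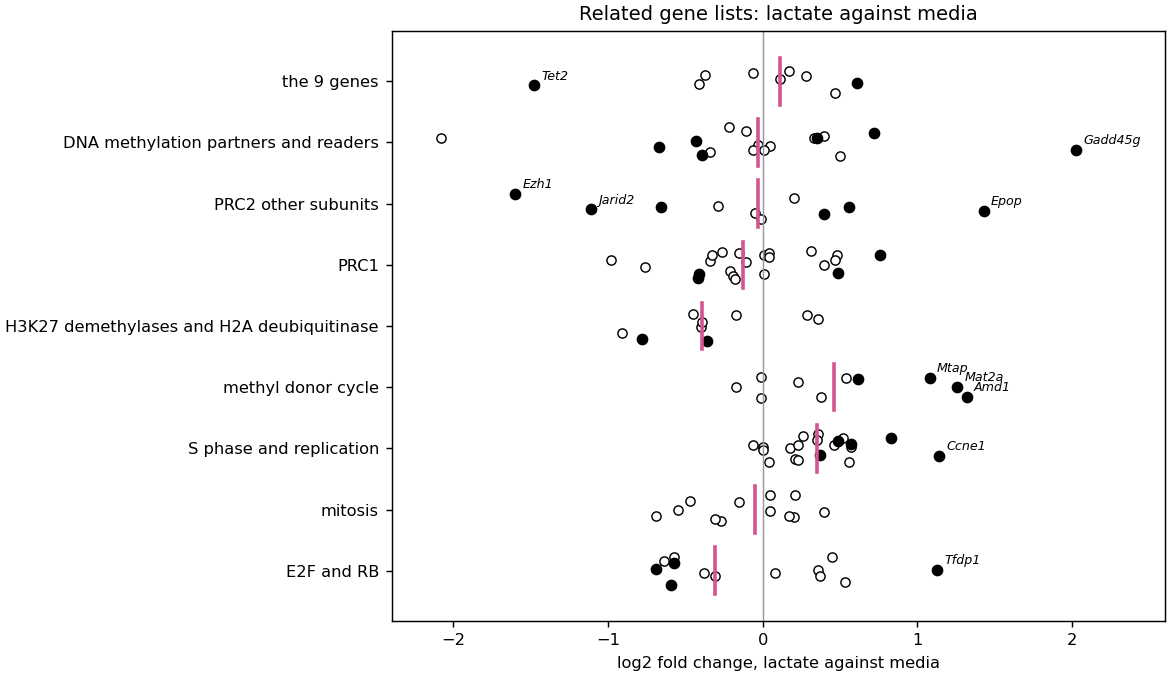
Log2 fold change of lactate against media (horizontal axis) for the 9 genes and the genes of 8 related lists, 1 point per gene, filled where the adjusted p was at most 0.01, with the median of each list as a vertical bar. Called genes with a change of at least 1 are named, and the methyl donor cycle (median 0.46) and the H3K27 demethylases and H2A deubiquitinase (median -0.39) have the medians farthest from 0.

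Over the 8 activated libraries some of the members fell into opposed sets, described here by Pearson's r of log2 CPM, which follows the difference between the groups. Tet2 ran with Dnmt3a (0.803) and against Ezh2 (-0.845) and Dnmt3b (-0.837), and Dnmt3b ran with Uhrf1 (0.925). Dnmt1 ran with Tet3 (0.808) and had little relation to Uhrf1 (-0.0798), Suz12 (-0.0904) or Eed (0.0708). The genes most like Tet2 were Kdm7a and Pcm1 (0.997 each), and those most like Ezh2 were Wdr70 (0.991) and Map3k7 (0.986). For Dnmt1 the closest was Brat1 (0.974), for Dnmt3a Lamc1 and Nr2c2 (0.985 each), for Dnmt3b Atp5b (0.983) and for Tet3 Ireb2 (0.992). Uhrf1 was closest to Pkp4 (0.984), Eed to Rbck1 (0.954) and Suz12 to Prepl (0.949). The points are 8 libraries in 2 groups, so these values describe them and carry no test.

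Library numbers in the labels fall into a low range (1 to 9) and a high range (16 to 26), and each group has libraries in both. The ranges are not balanced. Only library 4 of naïve and of media is in the high range, where lactate has libraries 3 and 4. The low and the high range gave a difference between lactate and media of the same sign for each of the 9 members. It was -1.55 and -1.19 for Tet2, 0.46 and 0.73 for Ezh2, 0.43 and 0.49 for Dnmt3b and -0.41 and -0.18 for Dnmt3a. For Dnmt1 it was 0.02 and 0.05, a sign opposite to the -0.06 of the fit of all 12 libraries. Tet3 and Dnmt1 were lowest in media in library 4, the only media library of the high range, at 93.3 and 460 CPM.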

How the data were processed

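The 12 libraries were made from polyadenylated RNA of mouse CD8+ T cells. The authors converted base calls with bcl2fastq 2.20.0.422, aligned reads to GRCm38 and removed PCR duplicates with STAR 2.7.5b, counted uniquely mapped reads in Ensembl exons with featureCounts, and deposited raw counts per gene with gene lengths. Total counts ran from 14726904 to 21478137. The edgeR p-values measure the spread between libraries within a group, each from another donor, pooled over the naïve, media and lactate groups. Donors shared by media and lactate were not paired in the main fit. The permutation p-values use only the groups compared.

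Groups, donors and library numbers came from the labels. Donor tags restart between the ranges of library numbers and were read within each. Genes with at least 1 CPM in 3 libraries were kept (13 dropped), scaled by TMM and fitted in 1 edgeR 4.0.16 quasi-likelihood model of 3 groups without a block (R 4.3.3), two-sided, with Benjamini-Hochberg adjustment over 13767 genes. Calls needed an adjusted p of at most 0.01. The SE is the fitted log2 change over the square root of F. DESeq2 1.42.0 and limma 3.58.1 were alternatives. Log2 CPM used a prior count of 2, ratios an added 0.5 counts. Ratios and levels relative to S phase genes were tested by exact permutation over 70 arrangements. The fit was tested on simulated data.

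Named were the 9 genes, Ezh1, partner genes called in lactate against media (values for the 3 largest if more), and the 2 genes most like each member with at least 10 CPM, of which 1 or both are given. Values of some listed genes are not reported here. Members and lists were chosen with earlier results of these data known. Positions are from GENCODE M21 and promoters from RefSeq.

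Media and lactate libraries of the same donor deviated together from their group means (correlation across genes 0.553, 0.374 and 0.211 for 3 pairs), the pairing coming from the donor tags. The libraries of each pair also share a range of library numbers. The pair of title number 2, from different donors within the low range, gave 0.297, so these values do not set donor apart from range.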

Additional observations from a re-analysis of the deposited data

Results flagged for a closer look

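In 39 groups of 4 libraries, 2 had a library far from the others, about what chance gives (1 in 20 groups). Both of these are the only library of the high range of library numbers in their group (number 26 in naïve and 17 in media). The part of that range in their values was not tested. Suz12 in naïve library 4 was at 224 CPM, with a gap of 0.912 of the group's range to the next library. Naïve library 4 also had the lowest CD8+ T cell marker sum, 2170 CPM. Dnmt3a in media library 4 was at 118 CPM, with a gap of 0.904 of the range, and lay below the other media libraries.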

How the results depend on the processing

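For lactate against media 27 alternatives were run on each member. They include the looser threshold of 0.05, under which no call can be lost. They also include fits that leave out only a naïve library, which is in neither group compared. Tet2 stayed called in all 27 (-1.59 to -1.33, largest adjusted p = 0.00195 in the alternatives) and Ezh2 in 26. Dnmt3a passed in 6 (adjusted p from 0.00287 to 0.0974 over all 27), of which 1 was the looser threshold of 0.05, and Dnmt3b under that threshold only (from 0.0119 to 0.134). A donor block over all 12 libraries was an alternative added after seeing the data. In it the naïve libraries shared the same level, so the spread between naïve donors stayed in the fit. It called 1 member and 992 of all genes in place of 2 and 3451, and 983 of the 992 were among the 3451. The cause of the lower counts was not tested. With a donor block on media and lactate libraries alone 3769 genes were called. The replicate block on title numbers, of which 1 and 4 join media and lactate libraries of the same donor and 2 and 3 do not (correlations 0.374 and 0.553 against 0.297 and 0.0038), gave 3256 and changed no member's call. At an adjusted p of 0.05, 4 members and 5461 genes passed. Leaving out single libraries gave 2 to 3 members and 2252 (without media library 2) to 4845 genes.

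With the mitosis list in place of the S phase list, the relative value became -0.25 for Dnmt3a (no longer without overlap), 0.60 for Dnmt3b, 0.72 for Ezh2, 0.29 for Eed and 0.23 for Suz12, the last 2 with the sign turned from -0.19 and -0.25. The mitosis list fell by 0.12 where the S phase list rose by 0.37. Leaving out single libraries, the relative value ran from 0.17 to 0.30 for Ezh2 (p = 0.0286 by exact permutation without lactate library 1) and from -0.31 to -0.20 for Suz12 (at 0.0571 without any 1 lactate library). The Dnmt3b to Dnmt3a ratio of media against naïve ran from 0.22 to 0.49, the last without media library 2, and the Tet3 to Tet2 ratio of lactate against naïve from -1.17 to -0.91, at an exact permutation p of 0.0571 without any 1 naïve library. Tet2 in lactate against naïve passed in DESeq2 (adjusted p = 0.0047) and with only the groups compared (0.00121).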
